A study of Mus musculus with 6 samples.

Results

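The gamma crystallins are the 8 genes Cryga, Crygb, Crygc, Crygd, Cryge, Crygf, Crygs and Crygn, which were found by symbol among the 13931 genes measured, and all 8 passed the expression threshold of an average log2 CPM above 1 (the log2 of read counts scaled to the size of the library). RNA-sequencing compared whole lenses of newborn (P0) mice with a conditional knockout of Celf1 in the lens (Celf1cKO) with control lenses. There were 3 libraries per group, with lenses pooled within each library. Celf1 transcript was reduced and not absent in Celf1cKO lenses, at 33.0% of the control level. Celf1cKO mice carried a germline knockout allele (Celf1lacZKI), a Celf1flox allele with loxP sites around exon 5, and the Pax6GFPCre transgene, which drives Cre from the lens placode onward. Control lenses are labelled Celf1lacZKI/+, so that both groups would carry a germline knockout allele, whereas by the study's methods the usual controls were Celf1flox mice that lacked Cre. Which of these genotypes the control lenses had was not settled. The mice were of a mixed C57BL/6 and FVB background.

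Gamma crystallins are small, soluble structural proteins that are packed at high concentration in the elongated fiber cells of the lens, where they contribute to its transparency and refractive index. Fiber cells switch on the clustered genes Cryga to Crygf as they differentiate, while Crygs is known as the gamma crystallin of later, cortical fibers and Crygn as a member with features of both the beta and the gamma families. Transcription factors such as Maf, Sox1, Pax6 and Prox1 are known to act on these genes, and mutations in several of them cause cataract in mice and humans. Celf1 encodes an RNA-binding protein that controls splicing, stability and translation of mRNA.

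In newborn Celf1cKO lenses all 6 clustered genes, Cryga to Crygf, were reduced, to between 26.5% and 57.7% of the control level. Crygf fell most and Crygc least. Crygs and Crygn, which lie on other chromosomes, did not pass the test, with 90.9% and 73.5% of the control level. Relative to Crygs, to Crygn and to the beta crystallin genes of the same library, the clustered genes were lower in every Celf1cKO library than in every control library, and so was Crygf relative to its closest relative Cryge. The direction of the falls held whichever library was left out, whereas the calls did not.

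On GRCm38, Cryge, Crygd, Crygc, Crygb and Cryga follow each other on the - strand of chromosome 1 within 54.82 kb, from position 65048554 (the 3' end of Cryge) to 65103373 (the 5' end of Cryga). Crygf stands apart from them, on the + strand of chromosome 1 from 65926520 to 65928307, at 823.146 kb from Cryga and with 12 annotated genes in between. Crygs lies on chromosome 16 (22805203 to 22811577, - strand) and Crygn on chromosome 5 (24751003 to 24758008, - strand). The clustered genes and Crygs have 3 exons in the main coding transcript and Crygn has 4. The coding sequences of the clustered genes were 79.3% to 98.1% identical to each other in pairs, with the highest value for Cryge and Crygf, and 55.9% to 60.4% identical to those of Crygs and Crygn.

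The sequence just before the start of transcription is shown for 5 of the clustered genes, because it holds the letter runs that the windows of all 6 have in common. The stretch runs from 150 to 21 bases before the RefSeq start on the coding strand of GRCm38.p6, and capitals mark TTTGTG and TATATA, including overlapping copies. The position is chr1:65103384-65103513 for Cryga, chr1:65082311-65082440 for Crygb, chr1:65063461-65063590 for Crygd, chr1:65051184-65051313 for Cryge and chr1:65926372-65926501 for Crygf. The stretches of Crygc, Crygs and Crygn overlap annotated exons and are not printed.
Cryga: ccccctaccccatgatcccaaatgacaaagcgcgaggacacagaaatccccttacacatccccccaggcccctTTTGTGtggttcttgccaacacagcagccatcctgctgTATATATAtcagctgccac
Crygb: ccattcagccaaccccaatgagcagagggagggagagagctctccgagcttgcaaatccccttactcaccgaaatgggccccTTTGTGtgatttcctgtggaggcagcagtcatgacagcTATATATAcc
Crygd: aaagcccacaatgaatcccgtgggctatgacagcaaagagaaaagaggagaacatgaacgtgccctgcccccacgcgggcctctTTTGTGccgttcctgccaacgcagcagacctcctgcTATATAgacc
Cryge: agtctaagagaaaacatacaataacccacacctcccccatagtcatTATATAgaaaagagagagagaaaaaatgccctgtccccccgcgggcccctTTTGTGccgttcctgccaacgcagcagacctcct
Crygf: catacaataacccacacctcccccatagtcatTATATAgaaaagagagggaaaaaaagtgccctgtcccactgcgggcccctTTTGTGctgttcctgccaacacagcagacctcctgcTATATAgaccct

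Each of the 6 clustered genes held TTTGTG on its coding strand within 250 bases before its start, between position -77 (Cryga) and position -54 (Cryge). Neither Crygs nor Crygn held it there, and 7.997% of the 32851 RefSeq windows of that length did on the same strand. TATATA, the core of a TATA box, was present in all 6 and in Crygn, was missing in Crygs, and occurred in 5.248% of the windows. Both words were picked as the longest runs of letters common to the 6 windows, so their presence in the 6 is how they were chosen and not a finding. CTTTTGT, a run that overlaps TTTGTG, was searched on both strands and was present in Cryga, Crygc, Crygd, Cryge, Crygf and Crygn and in 4.405% of the windows. In the clustered genes it lay over the chosen TTTGTG, so its presence there follows largely from that choice. TGCTGA, the core letters recognised by Maf factors, was searched on both strands and was present in Cryga, Crygc, Crygs and Crygn and in 16.08% of the windows. A match is only a match of letters, and binding was not measured.

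The 250 bases before the start were 80.7% identical between Cryge and Crygf, against 50.2% to 65.6% for the other pairs of clustered genes. The genes most alike in sequence were therefore alike before their start as well, although Cryge and Crygf lie on opposite sides of the other members and on opposite strands.

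Depth was high for every member. The libraries held between 40.7 M and 44.4 M reads counted on genes, and between 88879 and 1204215 of them fell on each gamma crystallin gene in each library, so that counting error was small beside the spread between libraries. Celf1, the deleted gene, had 9.95, 9.94 and 9.34 log2 CPM in controls 1 to 3, against 8.93, 7.66 and 7.83 in Celf1cKO lenses 1 to 3, a log2 fold-change of -1.60 (SE 0.335, limma adjusted p = 0.0269). Celf1cKO library 1 had the most Celf1 transcript of its group. Markers listed for lens fibers (12 of 13 in the table) and lens epithelium (5 of 5) were detected, and the keratin and globin genes listed for cornea, skin and blood are not analysed here.

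The members were described first within control lenses, on a scale that allows genes to be compared, which is log2 CPM per kb of annotated exon. On this scale the control level was 15.4 ± 0.08 (SD, n = 3) for Crygb, 15.0 ± 0.12 for Crygf, 14.9 ± 0.07 for Crygd and 14.6 ± 0.13 for Cryge. It was 14.1 ± 0.04 for Crygc and 14.02 ± 0.17 for Cryga. Crygs and Crygn were lower, at 12.5 ± 0.22 and 11.7 ± 0.25. The libraries of Crygf and Crygd overlapped, as did those of Crygc and Cryga, and the other neighbours in this order were separate. Crygd has alternative exons that raise its annotated length to 1028 bases, and per kb of its main coding transcript (613 bases) it would be the highest member, at 15.6. In Celf1cKO lenses Crygf moved from rank 2 to rank 5 of the 8 members, with 13.1 ± 0.74 (SD, n = 3), where its libraries overlapped those of its neighbours Crygc and Cryga, while Crygb kept rank 1 and Crygs and Crygn kept ranks 7 and 8. The Celf1cKO libraries of Crygb and Crygd overlapped. Per kb of main coding transcript, Crygf moved from rank 3 to rank 6, while Crygd and Crygb kept ranks 1 and 2.

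**Figure D1:**
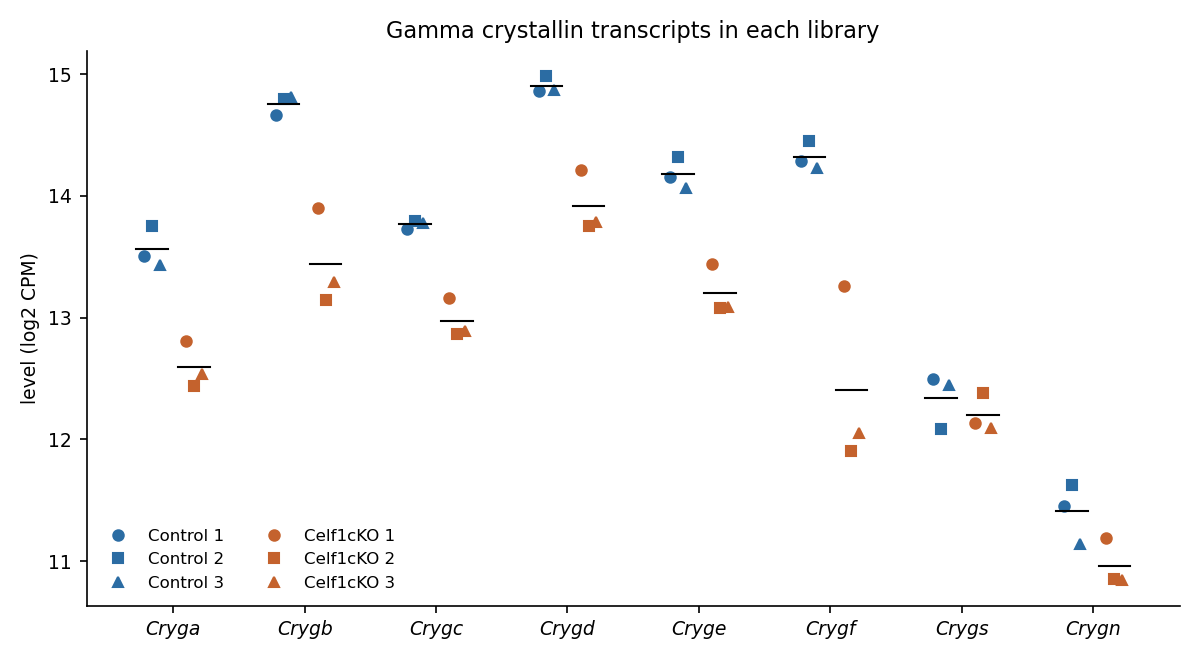
Level of each gamma crystallin gene in each library, in log2 CPM without correction for length, with controls in blue, Celf1cKO in orange, marker shapes for replicate numbers and black bars for group means. For Cryga to Crygf every Celf1cKO library lies below every control library, and for Crygs and Crygn the groups overlap.

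Crygf, whose human counterpart is a pseudogene, had 14.3, 14.5 and 14.2 log2 CPM in controls 1 to 3, against 13.3, 11.9 and 12.1 in Celf1cKO lenses 1 to 3. The control libraries were close together, and Celf1cKO library 1 stood between them and the other two of its group. The log2 fold-change was -1.91 (SE 0.347, limma adjusted p = 0.0187 after Benjamini-Hochberg correction over all genes), the rank 57 fall among 10640 expressed genes. In bulk samples fewer fiber cells and less of a transcript per fiber cell cannot be told apart, which holds for every level given here.

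Crygb, a member in which the Nop mutation causes cataract in mice, had 14.7, 14.8 and 14.8 log2 CPM in controls 1 to 3, against 13.9, 13.1 and 13.3 in Celf1cKO lenses 1 to 3. It showed the next largest fall, with a log2 fold-change of -1.31 (SE 0.238, limma adjusted p = 0.0187). As for Crygf, the groups were separate and Celf1cKO library 1 was nearest to the controls.

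Cryga, Crygd and Cryge fell by nearly the same amount. Crygd, one of the main gamma crystallins of the human lens, had 14.9, 15.0 and 14.9 log2 CPM in controls 1 to 3, against 14.2, 13.8 and 13.8 in Celf1cKO lenses 1 to 3, a log2 fold-change of -0.99 (SE 0.206, limma adjusted p = 0.0268). With the replicate block its adjusted p was 0.0549, and its call was lost. Cryge, the gene of the Elo cataract mutation, had 14.2, 14.3 and 14.1 log2 CPM in controls, against 13.4, 13.1 and 13.1 in Celf1cKO lenses, a log2 fold-change of -0.98 (SE 0.179, limma adjusted p = 0.0190).

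Cryga, at the 5' end of the tandem genes, had 13.5, 13.8 and 13.4 log2 CPM in controls, against 12.8, 12.4 and 12.5 in Celf1cKO lenses, with 51.0% of the control level left (limma adjusted p = 0.0165). Of its exonic bases, 350 (47.95%) are shared with Gm28845, a read-through gene on the same strand that is not analysed here, and how reads there were counted is not given in the sources used here. The groups of Cryga, Crygd and Cryge were all separate, again with Celf1cKO library 1 on top of its group.

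Crygc, the other main gamma crystallin of the human lens, fell least among the clustered genes. It had 13.7, 13.8 and 13.8 log2 CPM in controls 1 to 3, against 13.2, 12.9 and 12.9 in Celf1cKO lenses 1 to 3, which left 57.7% of the control level (log2 fold-change -0.79, SE 0.155, limma adjusted p = 0.0219). Its control libraries were the closest of any member, with an SD of 0.04 log2 CPM.

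Crygs, in which the Opj mutation causes cataract in mice, had 12.5, 12.1 and 12.4 log2 CPM in controls 1 to 3, against 12.1, 12.4 and 12.1 in Celf1cKO lenses 1 to 3. The groups overlapped, and the log2 fold-change was -0.14 (95% interval -0.51 to 0.24, limma adjusted p = 0.601), which turned to 0.09 on the scale of total counted reads and 0.04 under quantile normalization. Crygn had 11.5, 11.6 and 11.1 log2 CPM in controls, against 11.2, 10.9 and 10.8 in Celf1cKO lenses, with a log2 fold-change of -0.44 (95% interval -0.83 to -0.06 without adjustment, limma adjusted p = 0.117). The Crygn groups overlapped by 1 library on each side, Control 3 and Celf1cKO 1. Neither interval reaches the estimated log2 fold-change of Crygb or Crygf, but the interval of Crygn includes that of Crygc. The interval of Crygb itself (-1.87 to -0.76) overlaps that of Crygn, and these intervals do not test differences between genes.

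**Figure D2:**
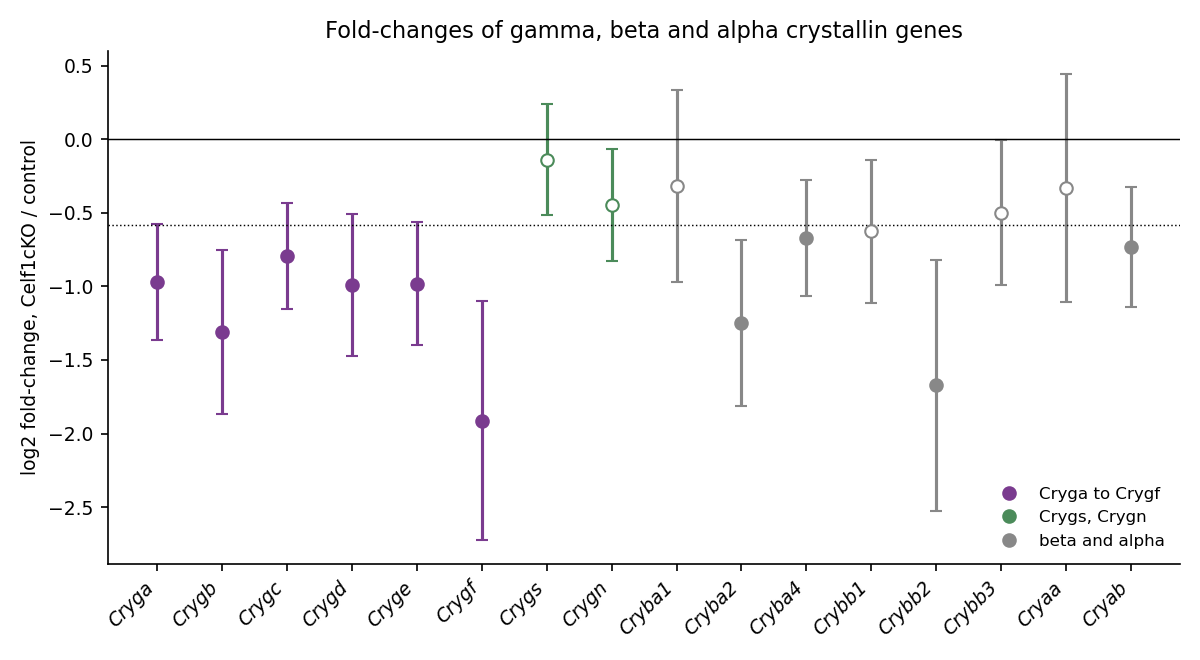
Log2 fold-change of each gamma, beta and alpha crystallin gene (Celf1cKO over control) with its 95% interval from limma, filled where the gene was called and open where it was not, and with the cut-off of 0.58 as a dotted line. Cryga to Crygf are all filled, from -0.79 to -1.91, and Crygs and Crygn are open.

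Counted over the family, 6 of 8 members were called lower and 0 higher (adjusted p under 0.05 from limma, log2 fold-change above 0.58 in size), where 3.44% of the 10640 expressed genes were called lower and 6.24% higher. Every Celf1cKO library lay below every control library for 6 of 8 members, against 16.9% of the expressed genes. The median log2 fold-change was -0.98 over the 8 members and 0.00 over the expressed genes (from -6.26 to 5.42). With the replicate block 5 members were called.

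The calls stood close to the threshold and depended on the libraries. Without Celf1cKO library 1 the test called 6 members. It called 0 without control library 1, 0 without control library 2, 3 without control library 3, 1 without Celf1cKO library 2 and 0 without Celf1cKO library 3. The direction of the 6 clustered genes was downward in all of these fits, with log2 fold-changes between -0.74 (Crygc) and -2.34 (Crygf). At an unadjusted p under 0.05 from limma, 6 of the 6 clustered genes passed in each of the 6 fits. The share of all expressed genes that passed this looser cut is not given here. The 6 fits also share most of their libraries, so they are not separate evidence. Over the whole table, where 1030 genes were called with all libraries, 1 gene was called without control library 2 and 1 without Celf1cKO library 3. The number was 596 without control library 1, 438 without control library 3, 436 without Celf1cKO library 2 and 1916 without Celf1cKO library 1. Quantile normalization, which gives every library the same distribution of values and so bears on genes at the top of it, called 0 members (3 at an unadjusted p under 0.05) and gave Crygc a log2 fold-change of 0.05.

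**Figure D3:**
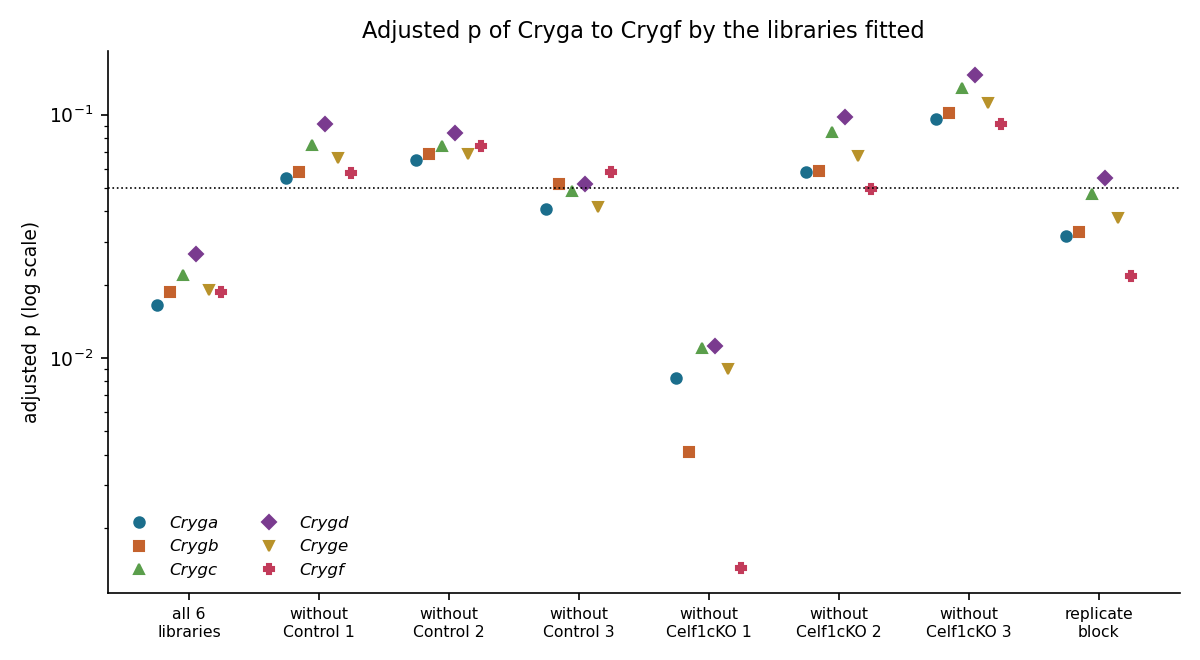
Adjusted p-value from limma, on a log axis, of each clustered gene with all 6 libraries, with each library left out in turn and with the replicate block, and the threshold of 0.05 as a dotted line. All 6 genes lie under the line with all libraries and without Celf1cKO 1, and between 3 and 6 of them cross it when any other library is left out.

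Celf1cKO library 1 was the highest of its group in all 6 clustered genes and in Crygn, and it also held the most Celf1. The order of the 3 Celf1cKO libraries was 2, 3, 1 from low to high for Celf1 and for 6 of the 6 clustered genes, and 23.7% of the expressed genes had this order. Without this library the log2 fold-change of Crygf was -2.34 and that of Crygb -1.54. With 3 libraries this is a description, and no relation was tested.

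Markers of other cells differed among the same libraries. The summed level of the 5 epithelial markers was 442, 466 and 508 CPM in controls 1 to 3 and 370, 145 and 318 CPM in Celf1cKO libraries 1 to 3, with 2 of the 5 called lower. The summed level of 3 vessel markers was 47.7 to 66.2 CPM in controls and 64.2, 6.15 and 24.3 CPM in Celf1cKO libraries 1 to 3. Without a block limma called 0 of the 3, and 0 had an unadjusted p under 0.05. With the replicate block 0 were called, and 3 were lower at an unadjusted p under 0.05 from limma. Without Celf1cKO library 1, 3 were called lower, as were 877 of the 10640 expressed genes. Fiber markers summed to between 26042 and 35670 CPM in controls and between 20189 and 21618 CPM in Celf1cKO libraries, and 6 of 12 were called lower. Retinal and pigment markers (2.58 to 19.8 CPM against 5.33 to 20.8 CPM) and immune markers (1.24 to 4.65 CPM against 2.28 to 3.25 CPM) were low and overlapped. Of the markers in the table, 0 were without reads in every library. The part of these cells in the gamma crystallin values was not tested.

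The next comparison asked whether the clustered genes changed more than Crygs and Crygn, by taking differences within each library, which do not depend on the factor by which a library is scaled. The summed CPM of Cryga to Crygf exceeded that of Crygs by 4.37, 4.92 and 4.43 on the log2 scale in controls 1 to 3 and by 3.99, 3.18 and 3.53 in Celf1cKO lenses 1 to 3. The groups were separate, and the mean difference changed by -1.005 (two-sided exact permutation test, p = 0.1, which is the lowest value 3 libraries per group allow). Without control library 2, in which Crygs was lowest, it changed by -0.83 (two-sided exact permutation test, p = 0.2).

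Against Crygn the clustered sum was higher by 5.41, 5.38 and 5.73 in controls 1 to 3 and by 4.93, 4.70 and 4.78 in Celf1cKO libraries 1 to 3 on the log2 scale. These groups were separate too, with a mean change of -0.70 (two-sided exact permutation test, p = 0.1). The summed level of the 6 clustered genes itself was 16.9 ± 0.08 log2 CPM (SD, n = 3) in control and 15.8 ± 0.31 (SD, n = 3) in Celf1cKO libraries, a change of -1.14 (two-sided exact permutation test, p = 0.1).

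**Figure D4:**
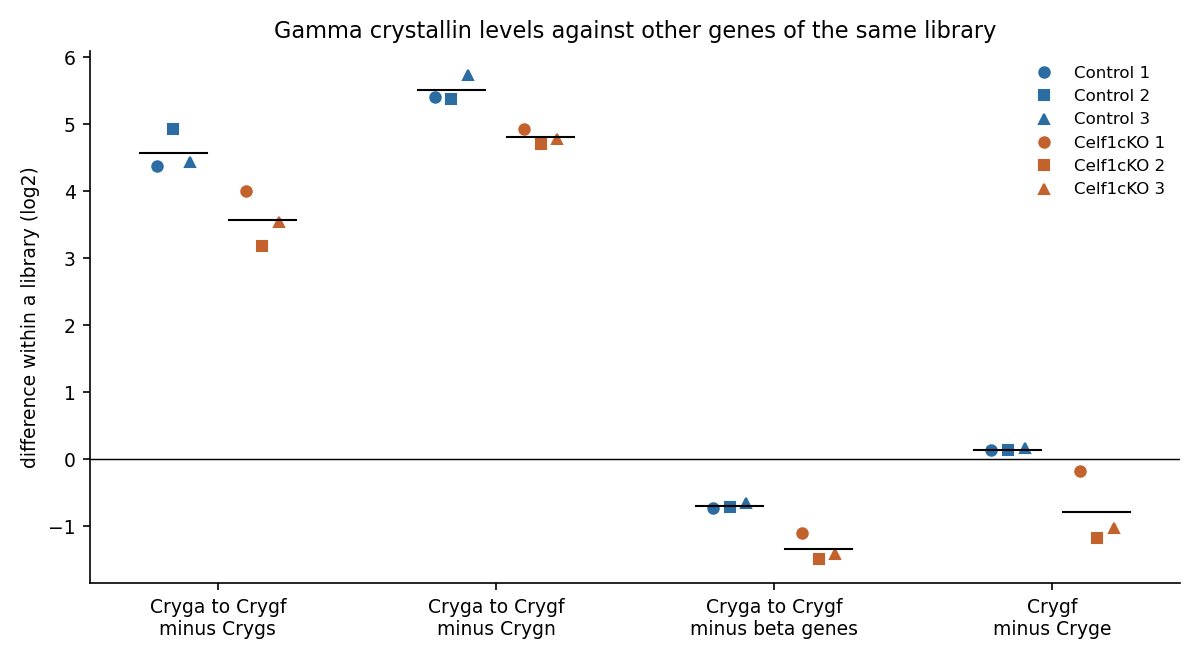
Log2 differences within each library between the summed clustered genes and Crygs, Crygn or the summed beta crystallin genes, and between Crygf and Cryge, with controls in blue, Celf1cKO in orange and black bars for group means. In each of the 4 differences every Celf1cKO library lies below every control library.

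Cryge and Crygf were compared in the same way, a pair picked after their values were seen because 98.08% of their coding bases are identical. Crygf exceeded Cryge by 0.13, 0.13 and 0.16 on the log2 scale in control libraries 1 to 3, and stood at -0.18, -1.17 and -1.03 against it in Celf1cKO lenses 1 to 3. The control libraries were nearly equal, and the Celf1cKO libraries were all lower and far apart. The mean change was -0.93 (two-sided exact permutation test, p = 0.1), and it was -1.24 without Celf1cKO library 1. The mean change of Crygf relative to Cryga, Crygb, Crygc and Crygd was -0.94, -0.60, -1.12 and -0.93 on the log2 scale, with separate groups each time.

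Reads that fit several of these genes bear on such differences, since the authors kept uniquely mapped reads only. Of all stretches of 150 bases in the transcripts, the length of one read, 0% in Crygf were found in another gene, against 6.43% in Cryge and 6.68% in Crygd (shared with each other), 14.8% in Crygb and 11.4% in Crygc (shared with each other) and 42.2% in Cryga (shared with Gm28845). For stretches of 75 bases the shares were 21.3% in Crygf and 42.0% in Cryge. Crygs and Crygn shared none at either length. How many read pairs were lost to shared sequence was not measured.

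As a share of all reads counted on genes, the 8 gamma crystallin genes took 12.02%, 12.3% and 12.3% in controls 1 to 3 and 8.27%, 6.08% and 6.34% in Celf1cKO lenses 1 to 3. The groups were separate, with means of 12.2% ± 0.18 (SD, n = 3) and 6.90% ± 1.2 (SD, n = 3) (two-sided exact permutation test, p = 0.1). Of the reads on the 16 alpha, beta and gamma crystallin genes, gamma crystallins took 26.4% ± 0.22 (SD, n = 3) in control and 18.9% ± 2.2 (SD, n = 3) in Celf1cKO libraries. The share of alpha crystallins in those reads went from 33.3% ± 0.71 to 38.7% ± 1.8 and that of beta crystallins from 40.3% ± 0.91 to 42.4% ± 0.43, with separate groups in both cases. These shares sum to the whole. Of all counted reads, alpha crystallins took 15.4% ± 0.32 in control and 14.02% ± 0.20 in Celf1cKO libraries and beta crystallins 18.7% ± 0.54 and 15.4% ± 0.68, lower in every Celf1cKO library than in every control library.

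The make-up of the gamma crystallin reads differed between the groups as well. Crygf gave 15.7%, 16.1% and 15.0% of them in controls 1 to 3 and 12.5%, 6.92% and 7.49% in Celf1cKO libraries 1 to 3. Crygb went from 21.1% ± 1.2 to 17.8% ± 1.6 (SD, n = 3), with separate groups. Crygs went from 4.0% ± 0.77 to 7.68% ± 2.0 and Crygn from 2.08% ± 0.28 to 3.19% ± 0.18, with separate groups, and neither was called higher in level. Crygc went from 10.6% ± 0.39 to 12.8% ± 0.98 and Crygd from 23.3% ± 0.06 to 24.7% ± 0.38, also with separate groups, and those of Cryga and Cryge overlapped (two-sided exact permutation test, p = 0.1 for each separate pair of groups). These 8 shares sum to the whole, so a fall in one raises the others.

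**Figure D5:**
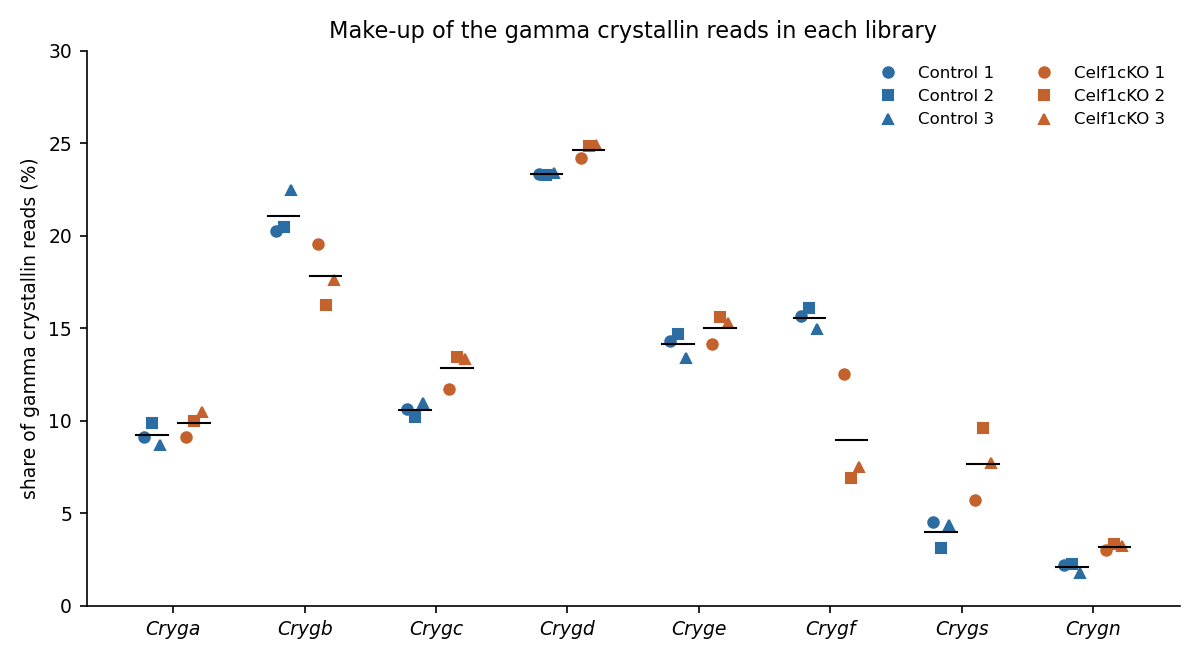
Share of each gamma crystallin gene in the reads counted on all 8, in percent, for each library, with controls in blue, Celf1cKO in orange and black bars for group means. Crygf goes from between 15.0% and 16.1% in controls to between 6.92% and 12.5% in Celf1cKO libraries, and Crygs lies higher in each Celf1cKO library than in any control.

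The other crystallin genes, from a list of 11 of which 10 were in the table, give the wider family as a reference. Among them 4 were called lower and 0 higher, and 2 lower with the replicate block, where 3.44% of the expressed genes were called lower and 6.24% higher. Every Celf1cKO library lay below every control library for 9 of the 10, and for 6 of the 6 beta crystallin genes, against 16.9% of the expressed genes. Separate groups were thus not particular to the clustered gamma genes. The median log2 fold-change of the 10 genes was -0.65. The called genes were Crybb2 (-1.67) and Cryba2 (-1.25), Cryab (-0.73), a small heat shock protein, and Cryba4 (-0.67), of which Crybb2 and Cryba2 remained with the block. Against the summed beta crystallin genes, the clustered gamma sum stood at -0.73, -0.72 and -0.65 on the log2 scale in controls 1 to 3 and at -1.10, -1.49 and -1.42 in Celf1cKO lenses 1 to 3. The groups were separate, with a mean change of -0.64 (two-sided exact permutation test, p = 0.1), a comparison added after the values were seen.

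Regulators known or proposed to act on gamma crystallin genes were taken from a list of 25, of which 22 were in the table. Among these, 1 was called lower and 1 higher (1 and 2 with the replicate block, which added Meis2). These counts of calls are near the share over all expressed genes (3.44% lower and 6.24% higher). The log2 fold-changes ranged from -2.01 to 0.60 around a median of -0.26. Every Celf1cKO library lay below every control library for 9 of the 22 and above for 3, where 1803 and 2457 of the 10640 expressed genes did so. Foxe3, a forkhead factor of the lens epithelium, was reduced, with a log2 fold-change of -2.01 (limma adjusted p = 0.0434), and it is also one of the epithelial markers above. Mafg, a small Maf protein, was elevated by 0.58 (limma adjusted p = 0.0487), at the fold-change cut-off. Hsf4, which is also listed as a fiber marker, had a log2 fold-change of -0.41 (limma adjusted p = 0.0210), under that cut-off.

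Maf, the large Maf factor that activates crystallin genes in fiber cells, and Prox1, a homeobox factor of fiber differentiation, were singled out for their known roles after the values were seen. Maf had a log2 fold-change of -0.49 (SE 0.149, limma adjusted p = 0.0754, 0.0407 with the replicate block) with separate groups, which is under the fold-change cut-off. It had 9.25, 9.59 and 9.68 log2 CPM in Celf1cKO libraries 1 to 3. Maf was thus lowest in library 1, where the clustered genes were highest, and a relation between them was not tested. Prox1 had a log2 fold-change of -0.02 (limma adjusted p = 0.921). Sox1, Sox2 and Nrl are not analysed here.

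Among the other expressed genes, those whose profile over the 6 libraries was most like the mean profile of the 6 clustered genes were Fgfr2, Stk40, Zbtb7b, Msx2 and Ube2o. Likeness was the root mean square distance between centred log2 CPM profiles, which was 0.04 for Fgfr2 and up to 0.08 for Ube2o, against a median of 0.65 over 10624 genes. Among the clustered genes themselves it ranged from 0.10 (Crygd, Crygb) to 0.45 (Crygf). Fgfr2, a receptor for the fibroblast growth factors that drive fiber differentiation, had 8.54, 8.63 and 8.50 log2 CPM in controls 1 to 3, against 7.75, 7.18 and 7.16 in Celf1cKO lenses 1 to 3, with separate groups. Over 6 libraries many genes that differ between the groups have a like profile.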

How the data were processed

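RNA of P0 lenses was sequenced in 3 control and 3 Celf1cKO libraries, from strand-specific paired-end reads of 150 bases. According to the study's methods and the labels, reads were trimmed, aligned to GRCm38.p6 with STAR 2.7.8a, kept where uniquely mapped and counted per gene with featureCounts 2.0.0. Whether the counting used strand is not given in the sources used here. The authors normalised the counts with edgeR and deposited log2 CPM values for 13931 genes. The table also holds the authors' own average log2 CPM, which was used for the expression threshold, and log2 fold-changes, a test score, p-values and FDR, which were not used.

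Samples were grouped by their labels. Read numbers were recovered from the spacing of the values, and 100% came out whole within 0.01. All genes were fitted with limma 3.58.1 (R 4.3.3, prior variance following expression, prior degrees of freedom 3.4) without a block, with Benjamini-Hochberg adjustment over all genes. A gene was called at an adjusted p under 0.05, a log2 fold-change above 0.58 in size and an average log2 CPM above 1. The fit was tested on simulated data with independent libraries and changes larger than the falls of all clustered genes but Crygf. That test does not bear on smaller falls or on paired libraries. Single values were compared by exact permutation tests, which cannot go below p = 0.1.

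The replicate numbers were taken as pairs because the deviations of same-numbered libraries from their group means correlated at 0.30, 0.42 and 0.35. The labels state no pairing. The named genes were the 8 members, Celf1, 2 lists (other crystallins and regulators), cell type markers, neighbouring genes and the 5 genes of most alike profile. The members and lists were chosen with earlier results of these data known. Gene models came from GENCODE M21, which held 13928 of the gene identifiers, and promoters from RefSeq, which held all 8 members. Sequences were compared with Biopython 1.88, and figures drawn with matplotlib 3.10.9. Alternatives were the replicate block, other variance priors, other scalings and pseudocounts, limma voom on the recovered reads, and each library left out.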

Additional observations from a re-analysis of the deposited data

How the results depend on the processing

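The count of 6 called members was 5 or 6 under the replicate block, both other variance priors, log2(CPM + 1), a fit of expressed genes only, median centring, scaling without the crystallin genes or to total counted reads, limma voom and the adjusted p alone. It was 0 under quantile normalization, where the log2 fold-changes of Crygc and Crygs reversed to 0.0499 and 0.0441, and where Crygd and Cryge came to 0, since that method keeps only the rank of a gene within a library. Over the fits without 1 library each it ranged from 0 to 6. Scaling to total counted reads moved the median log2 fold-change of expressed genes by 0.23, took Crygc to -0.57, under the cut-off, and turned Crygs to 0.0884. Crygf lost its call with one prior variance for all genes (limma adjusted p = 0.0509). Over all genes, 1030 were called, 1279 with the replicate block, 421 with one prior variance, 1867 with total counted reads and 1052 with limma voom on the recovered reads.

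Under the replicate block (paired by number) the calls of Crygd, Cryab and Cryba4 were lost, Meis2 was added, and no other call among the genes reported changed. The mean changes of the summed level (-1.14), of the difference from Crygs (-1.005) and of the share of counted reads (-5.34 percentage points) were the same when taken over pairs, where the smallest p of an exact sign-flip test is 0.25. These 3 values kept their direction under each alternative run for them, and ranged from -1.32 to -1.04, -1.22 to -0.81 and -6.03 to -4.93 over the fits without 1 library each. Scaled to total counted reads, the summed level changed by -0.92, and as a share of crystallin reads the gamma crystallin genes changed by -7.49 percentage points. Depth did not limit the members, each of which had at least 88879 reads per library. The number of libraries, 3 per group, did.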

Other observations

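Of the 8 tabled genes that lie next to the gamma crystallin genes, 5 had an average log2 CPM above 1 and could be called. Of these 5, 0 were called lower by limma and by limma voom, 1 (Map2) was lower at an unadjusted p under 0.05, and 2 were called higher, where 3.44% of the expressed genes were called lower and 6.24% higher. Pikfyve, a lipid kinase gene and the nearest tabled one between the tandem genes and Crygf, 648 kb from Crygf, and Rheb, a small GTPase gene 44.8 kb above Crygn on chromosome 5, were elevated, with log2 fold-changes of 0.59 (limma adjusted p = 0.0151) and 0.61 (limma adjusted p = 0.0196). Map2, a microtubule gene 247 kb above Crygf, had a log2 fold-change of -0.49 (limma adjusted p = 0.0558). Akr1cl and D630023F18Rik, on the 2 sides of the tandem genes, had at most 35 and 22 reads in any library, and gave log2 fold-changes of -1.70 (SE 0.846) and -0.16 (SE 0.409), which the depth leaves wide. They and Wdr86 beside Crygn were under the expression threshold. Dgkg and Tbccd1 beside Crygs did not pass the test.

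The 3' untranslated regions of the 8 genes are short, from 38 bases in Crygd to 116 bases in Crygs, against a median of 1046 over 10274 genes. TGTTTGT, a G- and T-rich word (G and U in the RNA) of the kind that CELF1 is known to bind, was found in 0 of the 8 and in 28.5% of those genes, and the shorter TGTGT in Cryga, Cryge and Crygf and in 76.6%. Short regions have less room for any word, and these counts are matches of letters only.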
